A study of Mus musculus with 38 samples.

Results

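The Slc22a26 to Slc22a30 cluster is a run of 5 organic anion transporter genes on mouse chromosome 19, and the histone peaks over it were examined in male and female liver. All peaks that overlapped chr19:7800000-8520000 (mm9) in 12 deposited lists, 1 per mark and sex, were taken, which gave 143 peaks of 384017. The left part (chr19:7800000-8050000) held 56 peaks, the right part (chr19:8150000-8520000) held 81, and 6 lay between them. The region was chosen from sex differences seen in these same lists, so the ratios and calls below describe it and carry no test.

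Liver was taken from CD-1 mice of both sexes when they were 8 weeks old for the histone libraries, CD-1 being outbred, and the labels name no treatment or mutation for either sex. The marks, by chromatin immunoprecipitation and sequencing, were H3K4me1 (4 male and 3 female libraries), H3K4me3 (4 and 3), H3K27ac (3 and 3), H3K36me3 (2 and 2), H3K27me3 (3 and 3) and H3K9me3 (2 and 2). The lists of a mark and sex were identical between its libraries, so each is 1 pooled list with no spread between animals. Whole liver was used, so fewer cells of a type and less of a mark per cell cannot be told apart. Reads inside peaks over the whole lists numbered 12562838 in males and 20459697 in females for H3K4me1, 19253391 and 12837285 for H3K27ac, and between 1526754 and 16904292 per sex for the other marks, H3K9me3 having the fewest in both sexes. Raw reads in a peak are therefore not on 1 scale between the sexes, and the direction of a difference is taken from the log2 ratio of male over female signal in the authors' deposited table, where a positive value means higher in males. A peak is called male or female there when the absolute log2 ratio is at least 1 and its p is below 0.001.

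Slc22a genes encode membrane carriers that move organic anions and cations into and out of cells, mainly in liver and kidney. Their anion-carrying members (OATs) handle drugs, bile acid and steroid conjugates and other metabolites, and in rodents a block of them has multiplied by duplication. Sex differences of mouse liver are known to follow the sex-specific pattern of pituitary growth hormone, which acts through the transcription factor STAT5. H3K4me3 lies at active gene starts, H3K4me1 and H3K27ac at enhancers and promoters, H3K27ac mainly at those in use, and H3K36me3 over transcribed gene bodies. H3K27me3 is laid down by Polycomb repressive complexes over silent genes, and H3K9me3 marks heterochromatin.

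RefSeq (GRCm38.p6) lists the genes in the order Slc22a19, Slc22a26, Slc22a27, Slc22a28, Slc22a29, the long noncoding RNA Gm41804, Slc22a30, Slc22a8 and Slc22a6, with all 5 members on the minus strand and Gm41804 on the plus strand. No mm9 annotation was used here, so gene starts were placed on mm9 by exact matches between RefSeq promoter sequences of 300 bases and 35-base reads of a control IgG library whose alignment was deposited. In this way 1 of the 5 members was placed, Slc22a26, with its start at chr19:7877158 (mm9). Gm41804 was placed with its promoter at chr19:8325149-8325448 and Slc22a19, which lies outside the region, at chr19:7785752-7786051 (both mm9). Slc22a27, Slc22a28 and Slc22a29 begin between Slc22a26 and Gm41804 in the RefSeq order, and Slc22a30 beyond Gm41804. No peak was assigned to any of those 4.

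The promoters of 4 members are shown because they carry the identity of the placed gene and the degree to which its neighbours can be told apart by short reads. Each is the 250 bases before the gene start in RefSeq (GRCm38.p6), written 5′ to 3′ along the gene. In Slc22a26, capitals mark the 70 bases matched by the 2 IgG reads that placed it. In Slc22a29 and Slc22a30, capitals mark bases that differ from, or have no partner in, the aligned Slc22a28 promoter.
Slc22a26 chr19:7802668-7802917 minus strand: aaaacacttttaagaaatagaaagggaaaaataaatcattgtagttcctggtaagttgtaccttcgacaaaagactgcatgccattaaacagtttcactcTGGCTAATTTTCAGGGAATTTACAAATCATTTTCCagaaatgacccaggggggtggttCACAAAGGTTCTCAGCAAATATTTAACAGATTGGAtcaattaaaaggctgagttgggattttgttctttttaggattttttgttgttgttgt
Slc22a28 chr19:8131983-8132232 minus strand: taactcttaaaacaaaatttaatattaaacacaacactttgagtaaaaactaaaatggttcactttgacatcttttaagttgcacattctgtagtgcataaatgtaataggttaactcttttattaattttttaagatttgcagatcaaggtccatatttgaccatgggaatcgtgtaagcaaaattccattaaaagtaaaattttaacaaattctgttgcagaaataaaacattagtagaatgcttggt
Slc22a29 chr19:8218901-8219150 minus strand: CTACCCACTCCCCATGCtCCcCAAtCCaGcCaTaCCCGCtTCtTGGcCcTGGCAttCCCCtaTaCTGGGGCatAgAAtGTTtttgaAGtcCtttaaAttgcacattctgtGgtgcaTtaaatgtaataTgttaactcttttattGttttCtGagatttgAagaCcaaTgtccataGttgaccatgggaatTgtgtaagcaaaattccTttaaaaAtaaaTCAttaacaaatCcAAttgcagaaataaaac
Slc22a30 chr19:8405106-8405355 minus strand: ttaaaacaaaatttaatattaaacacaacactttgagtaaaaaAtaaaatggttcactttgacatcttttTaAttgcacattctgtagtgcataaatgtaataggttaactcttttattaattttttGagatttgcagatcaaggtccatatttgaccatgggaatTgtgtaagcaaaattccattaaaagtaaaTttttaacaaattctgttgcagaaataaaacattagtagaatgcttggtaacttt

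Over 300 bases, the promoters of Slc22a28 and Slc22a30 were identical at 288 of 294 aligned bases (98%), with an unbroken shared run of 98 bases. Of the 266 stretches of 35 bases in either promoter, 97 (36.5%) occurred in the other as well. A read of that length from such a stretch has no unique place between the 2 genes. The Slc22a29 promoter was further away, with 205 of 281 aligned bases (73%) shared with Slc22a28 and 211 of 271 (77.9%) shared with Slc22a30, and none of its 35-base stretches occurred in another member. The Slc22a26 and Slc22a27 promoters also shared no 35-base stretch with another member.

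Short motifs of liver factors were looked up on both strands of the 5 promoters, a choice made after the sequences had been seen. TTCNNNGAA, the core bound by STAT factors, had 1 match, in Slc22a26, starting at base -141 from the gene start, and 8.3% of 32851 RefSeq promoters of the same length hold it. ATCAAT, a core bound by HNF6, had 1 match, also in Slc22a26, at -58 (7.54% of promoters). GTTAAT, a part of the HNF1 site, had 1 match, in Slc22a29, at -29 (7.1% of promoters). TATAAA (13.6% of promoters), the FOXA core TGTTTAC (3.65%) and the HNF4 site CAAAGTCCA (0.475%) had no match in any of the 5 windows, and none of the matches found overlapped another.

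Across the cluster, the left part carried female calls of the active marks with male calls of H3K27me3, and the right part was mixed. H3K4me1, H3K4me3, H3K27ac and H3K36me3 together had 49 peaks in the left part, of which the authors' deposited table called 3 male and 28 female. Over all peaks of these marks in both lists, 2.91% are called male and 1.74% female. In the right part, 79 active-mark peaks had 15 male and 9 female calls in the authors' deposited table. Both parts were chosen on these ratios, so nothing is read from the distance to those shares. Sites present in both lists count once per list here. When calls had to reach 1.5 on the log2 scale with p below 1e-05, the left part had 1 male and 16 female calls, and the right part had 7 male and 7 female calls.

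**Figure D1:**
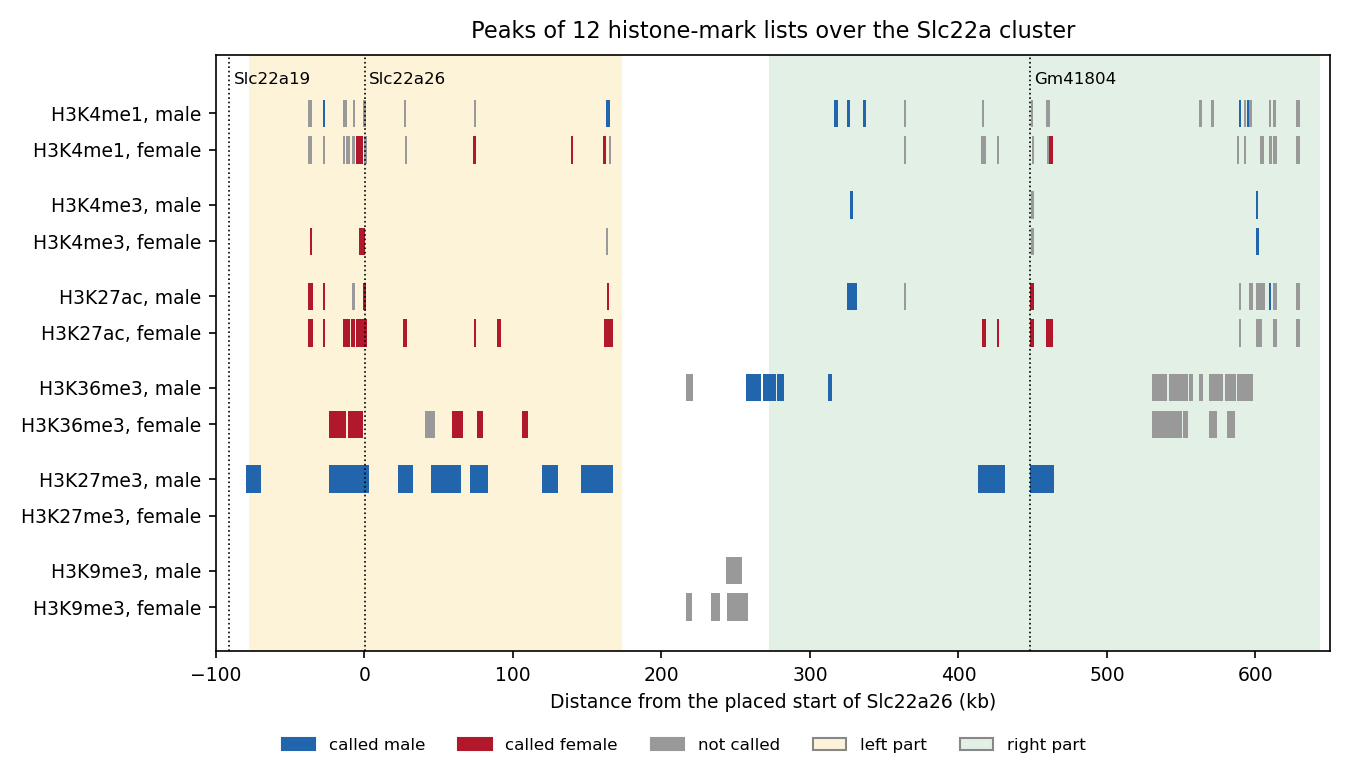
Peaks of the 12 lists over the cluster, placed by distance from the start of Slc22a26 in kb, with a row for each mark and sex and colour for the call in the authors' deposited table; dotted lines mark the 3 placed gene starts. The 9 H3K27me3 islands are all in the male row, 7 of them touch the left part, and the female row is empty.

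**Figure D2:**
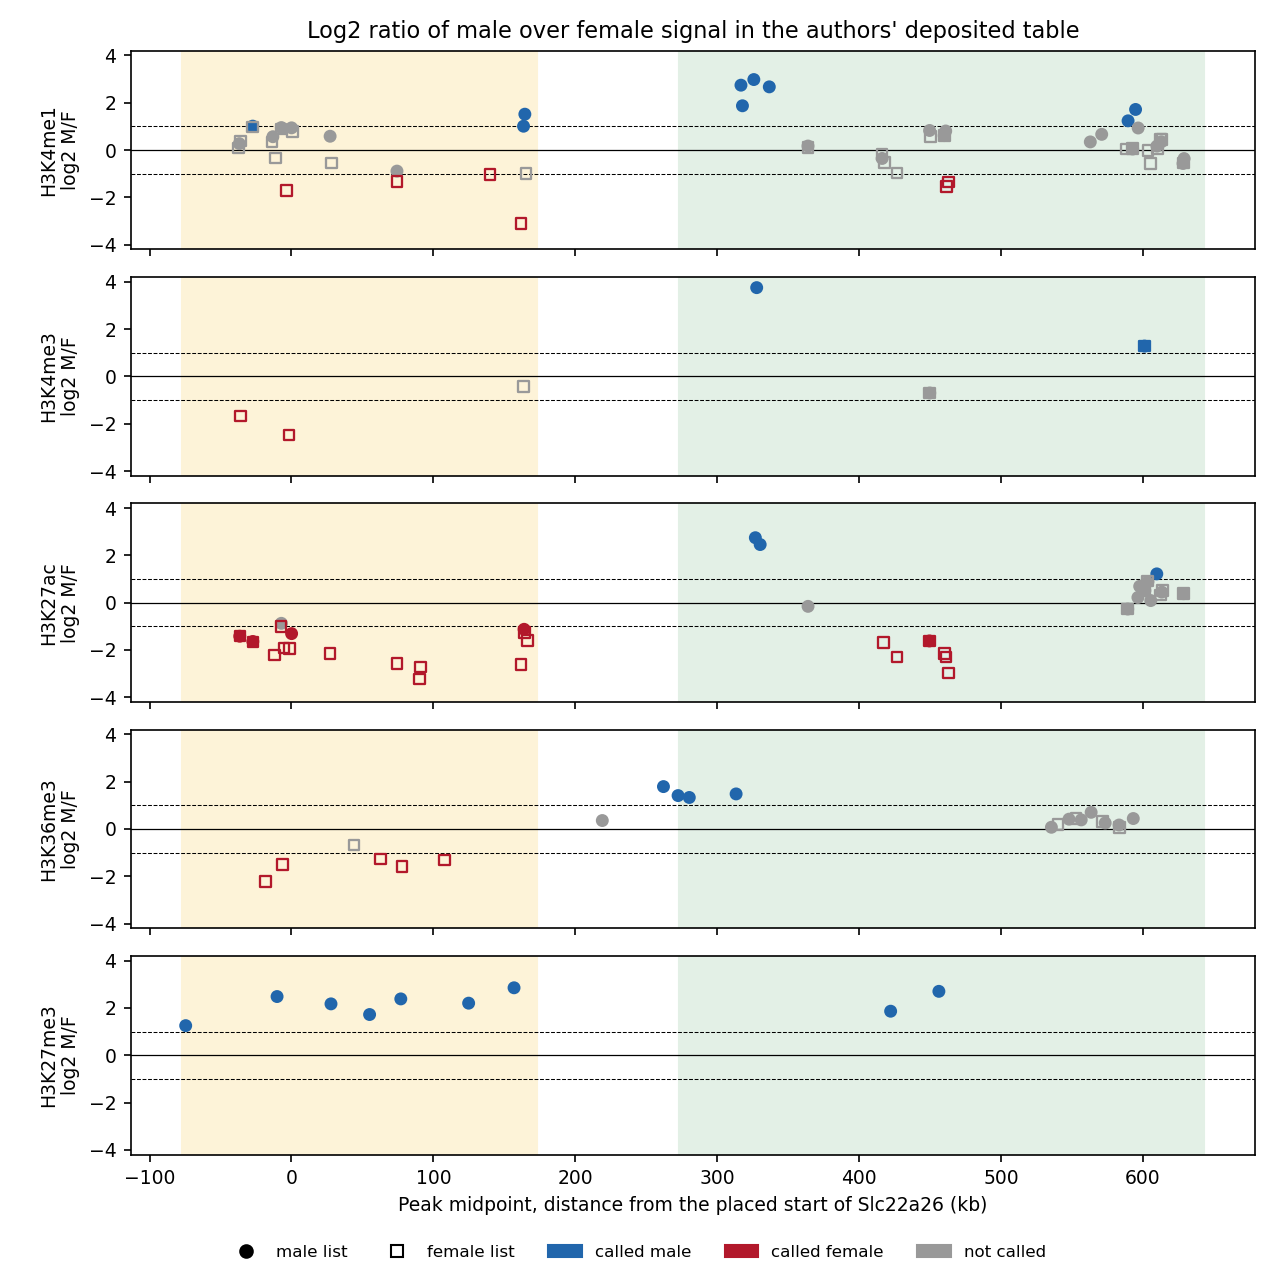
Log2 ratio of male over female signal in the authors' deposited table for each peak of 5 marks, at the peak midpoint in kb from the start of Slc22a26, with filled circles for the male list and open squares for the female list; dashed lines mark a log2 ratio of 1 in either direction. H3K27ac in the left part lies between -3.23 and -0.87, while the right part holds a male group nearest the left part, then a female group, then ratios mostly within 1 of 0.

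H3K4me3, the mark of active starts, was listed over Slc22a26 in females alone. The male list had 0 H3K4me3 peaks in the left part and the female list had 3. The female peak chr19:7873392-7877204 (mm9) held 313 tags, covered the Slc22a26 start and ran from it into the gene. Its log2 ratio in the authors' deposited table was -2.48, a female call that ranked 28 of 18942 peaks from the most female. A second female peak, chr19:7840787-7841648, held 39 tags and was called female at -1.67 in the authors' deposited table. The third, chr19:8040308-8040780, held 18 tags and was not called, at -0.44 in the authors' deposited table. Female calls make up 1.25% of the female H3K4me3 list.

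H3K27ac was spread over more of the left part in females, in more peaks. The male list had 5 H3K27ac peaks there, with 1042 tags over 10.9 kb, and the female list had 13, with 3536 tags over 31.7 kb. All 18 had a log2 ratio below 0 in the authors' deposited table, between -1.64 and -0.87 in the male list and between -3.23 and -1.02 in the female list. The authors' deposited table called 4 of the 5 male-list and 13 of the 13 female-list peaks female, against 0.861% of all male-list and 3.02% of all female-list H3K27ac peaks. No male peak overlapped 8 of the 13 female peaks, and 11.6% of the whole female list had none.

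The widest H3K27ac peak of the left part lay over Slc22a26. The male peak chr19:7876052-7878421 held 213 tags over the gene start, and the female peak chr19:7872796-7878616 held 782 tags and reached further into the gene. The authors' deposited table gave log2 ratios of -1.31 in males and -1.93 in females, both female calls. At chr19:7838944-7842461 males had 408 H3K27ac tags and at chr19:7838949-7842630 females had 771, the second most of a female peak in the cluster. The authors' deposited table gave -1.42 for both peaks. The 3 most female ratios of the left part in the female list were -3.23 at chr19:7966763-7967659 (37 tags), -2.72 at chr19:7967887-7968530 (28 tags) and -2.60 at chr19:8038205-8039761 (69 tags) in the authors' deposited table. These were small peaks with no male peak overlapping them. In the male list the most female was chr19:7849143-7850692 (171 tags), at -1.64 in the authors' deposited table.

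**Figure D3:**
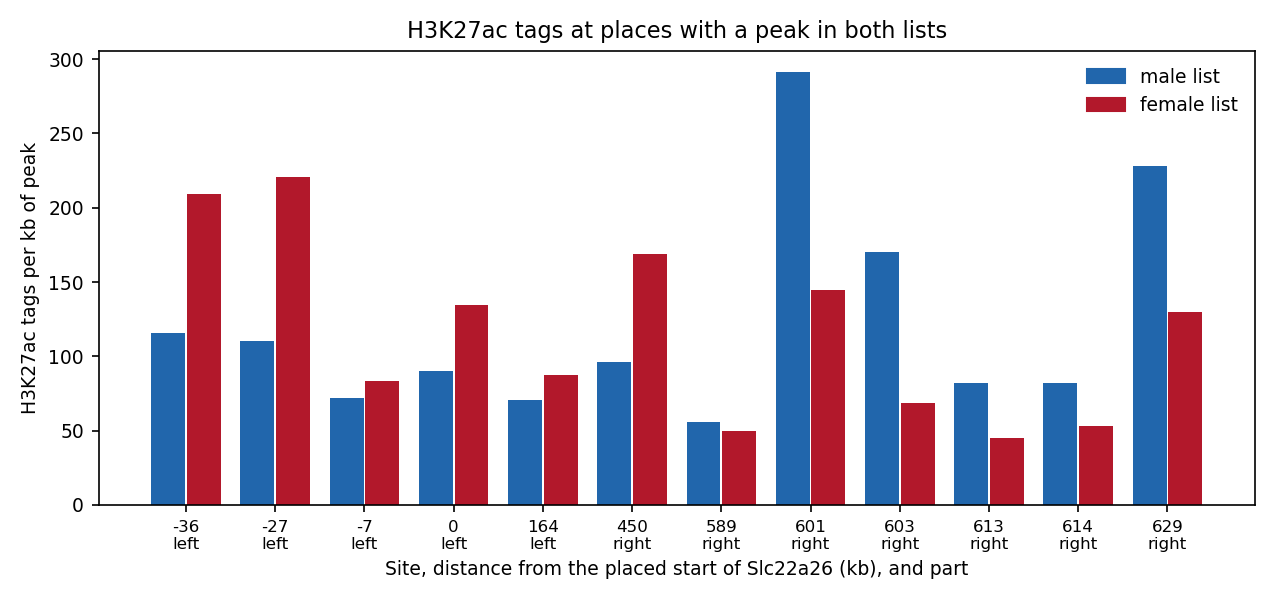
H3K27ac tags per kb of peak at the 12 places where a male and a female peak overlap, by distance from the start of Slc22a26 in kb; a pair of bars shows the male and then the female list, 1 pooled list each, so there are no error bars. Female values are higher at the 5 left sites and at the right site nearest to them, and male values are higher at the other 6 right sites; tags are not scaled between the sexes.

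At the 5 left sites with an H3K27ac peak in both lists, the female list had the more tags at each, although it holds fewer H3K27ac reads over all peaks. Tags numbered 408 in males and 771 in females 36 kb downstream of the Slc22a26 start, and 171 in males and 377 in females 27 kb downstream. They numbered 139 in males and 222 in females 7 kb downstream, 213 in males and 782 in females over the start, and 111 in males and 237 in females 164 kb upstream.

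H3K36me3, which follows transcription, had 0 islands in the left part in the male list and 6 in the female list, with 1618 reads over 43.4 kb. The authors' deposited table called 5 of the 6 female, against 0.451% of the female list. The strongest, chr19:7853200-7864799, held 649 reads at -2.21 in the authors' deposited table, and the next, chr19:7865800-7876199, held 404 with -1.49. Both lie on the side of the Slc22a26 start into which the gene is transcribed, and the second ends within 1 kb of that start. Further islands called female were chr19:7936200-7943199 (206 reads, log2 ratio -1.27), chr19:7953000-7957199 (116 reads, -1.58) and chr19:7983000-7986999 (111 reads, -1.31) in the authors' deposited table. The remaining island, chr19:7918200-7924399 with 132 reads, was not called, at -0.69 in the authors' deposited table.

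H3K27me3 ran the other way. The male list had 9 islands over the cluster, with 4323 reads over 144 kb, and the female list had 0. All 9 were called male in the authors' deposited table, where 160 of the 20048 islands of the male list (0.798%) are. No female island overlapped any of the 9, and 19.5% of the whole male list had none. By part, there were 7 islands over 110 kb of the 250 kb of the left part (44%), and 2 over 33.6 kb of the 370 kb of the right part (9.08%). An absent island means only that no island passed the island caller in the pooled female reads.

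The male H3K27me3 islands varied in size more than in density. The longest, chr19:7853600-7880399, covered the Slc22a26 start and overlapped the strongest pair of female H3K36me3 islands, with 972 reads against 312 control reads. Its log2 ratio in the authors' deposited table was 2.48. The most male was chr19:8023200-8044799, with 607 reads against 157 control reads, at 2.85 in the authors' deposited table, rank 7 of 20048 from the most male. The next 2 of the left part by ratio were chr19:7948000-7960399 (290 reads, 2.38) and chr19:7996400-8007599 (292 reads, 2.20) in the authors' deposited table. These were followed by chr19:7900000-7909999 (357 reads, 2.17) and chr19:7922000-7942399 (611 reads, 1.72) in the authors' deposited table. The leftmost, chr19:7797600-7807599 (272 reads), crosses the edge of the region and had 1.25, the lowest of the 9 in the authors' deposited table.

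**Figure D4:**
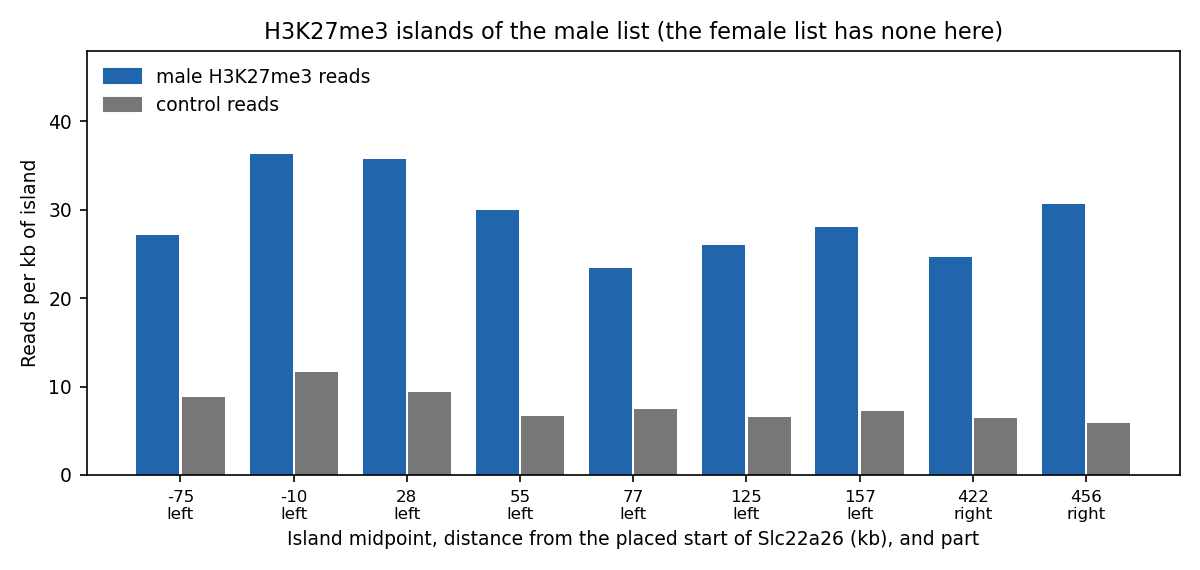
Reads per kb of the 9 H3K27me3 islands of the male list and of their control, by distance of the island midpoint from the start of Slc22a26 in kb; each bar is 1 pooled library set, so there are no error bars. Male reads lie between 23.4 and 36.3 per kb in every island, and the control reads are not scaled to them.

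Read density of the islands was close to that of their list. Their median was 28.1 reads per kb, against 26.1 over the male list, at a median width of 15.6 kb against 21.6 kb. Their median fold over control in the authors' deposited table was 1.98, against 1.49 over the list. Just outside the left edge, the male island chr19:7756000-7786399 covered the Slc22a19 promoter with 815 reads and was not called, at 0.35 in the authors' deposited table.

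Active-mark peaks of the left part overlapped male H3K27me3 islands both with and without a female call. These islands covered 44% of the left part and 9.08% of the right part. No share of such overlaps over the whole lists is given here, so the counts are a description. Of the 13 female-list H3K27ac peaks called female there, 9 overlapped a male H3K27me3 island, and so did 4 of the 5 female-called H3K36me3 islands. Among other female-called peaks, 2 of 4 H3K27ac peaks of the male list and 3 of 4 H3K4me1 peaks of the female list overlapped one. The female-called H3K4me3 peak over Slc22a26 did too, and the one at chr19:7840787-7841648 did not. Peaks without a female call overlapped these islands too, with 2 of 3 male-called and 5 of 6 uncalled H3K4me1 peaks of the male list and 6 of 9 uncalled H3K4me1 peaks of the female list, by the calls of the authors' deposited table. In the right part, 6 of 6 female-called H3K27ac peaks of the female list overlapped a male H3K27me3 island, and 0 of the 6 that were not called. H3K4me1 was less divided there, with 4 of 13 uncalled and 0 of 6 male-called peaks of the male list on an island. In the female list, 5 of 14 uncalled and 2 of 2 female-called H3K4me1 peaks were. The uncalled H3K4me3 peak of each list was on one as well, and no H3K36me3 island of the right part was. These counts compare pooled lists, many of them of opposite sexes, so they do not place both marks on the same nucleosomes.

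H3K4me1 did not follow H3K27ac at every site of the left part. The male list had 9 H3K4me1 peaks there, 3 called male and 0 female in the authors' deposited table, and the female list had 13, 0 called male and 4 female. Over the whole lists of this mark, 8.21% of male-list peaks are called male and 0.501% female, and 1.25% of female-list peaks are called male and 3.88% female. From the authors' deposited table, the log2 ratio had a median of 0.94 over the male peaks and -0.33 over the female peaks.

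In the male list, each of the 6 left-part overlaps of an H3K27ac and an H3K4me1 peak joined a log2 ratio below 0 for H3K27ac with one above 0 for H3K4me1 in the authors' deposited table. Opposite signs of this kind made up 6 of 14 such overlaps in the female list. Over the whole lists the shares of overlaps with opposite signs were 44.1% in the male list and 43.5% in the female list. At the overlaps of the whole lists whose H3K27ac peak was called female in the authors' deposited table, H3K4me1 had a ratio above 0 in 32.9% in the male list and 16.4% in the female list. The left-part overlaps were chosen with these ratios known, so they are given as counts.

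An example was chr19:7849165-7850496, with 181 H3K4me1 tags in males and 136 in the overlapping female peak. For H3K4me1 the authors' deposited table gave 1.01 in the male list, a male call, and 0.98 for the female peak, not called. With ratios centred on the peaks shared by both lists the male value was 0.95, short of a call. H3K27ac over it was called female, at -1.64 in the male list of the authors' deposited table. At the Slc22a26 start, the male H3K4me1 peak chr19:7876096-7878320 (170 tags) had 0.94 and the female peak chr19:7877286-7878449 (98 tags) had 0.78 in the authors' deposited table, neither called. Just inside the gene the sign changed in the female list. The female H3K4me1 peak chr19:7871484-7876100, with 419 tags the largest of the left part, was called female at -1.70 in the authors' deposited table and overlaps the female H3K4me3 peak. Further along on the transcribed side, the male list was above 0 in the authors' deposited table, at chr19:7869174-7870833 (0.95) and chr19:7862690-7865408 (0.57). The female list there had 0.89 at chr19:7868718-7870731, 0.34 at chr19:7862639-7864280 and -0.33 at chr19:7864465-7867236, and none of these was called. The male H3K4me1 peak with the most tags, chr19:7839091-7841697 (248), was not called, at 0.27 in the authors' deposited table.

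The most female H3K4me1 peak was chr19:8038032-8039672, with 183 tags in females and no male peak over it. Its log2 ratio in the authors' deposited table was -3.10, rank 17 of 82944 from the most female. A few kb further along, chr19:8040194-8041186 (53 tags) and chr19:8041232-8042007 (56 tags) of the male list were called male, at 1.01 and 1.52 in the authors' deposited table. The second overlapped a female peak, chr19:8041943-8042799 (79 tags), which had -0.99 in the authors' deposited table and was not called. With centred ratios the first of these male peaks had 0.94 and was no longer called, and that female peak had -1.04. Both female peaks and both male peaks lie on the most male H3K27me3 island. The other female calls were chr19:7950364-7952460 (216 tags, -1.33) and chr19:8016529-8017395 (71 tags, -1.03) in the authors' deposited table.

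The right part fell into 3 stretches that were set after the values had been seen, and they differed in sex. The first, 8.13 to 8.25 Mb, begins in the space between the parts. It had 13 active-mark peaks in the male list, 11 of them called male in the authors' deposited table, and 1 peak, not called, in the female list. The second, 8.28 to 8.35 Mb, had 6 active-mark peaks in the male list with 1 female call, and 14 in the female list with 8 female calls, in the authors' deposited table. The third, from 8.40 Mb to the right edge, had 27 male-list peaks with 4 male calls and 19 female-list peaks with 1 male call in the authors' deposited table, and no female call. By mark, the right part had 13 H3K27ac peaks in the male list (3 called male and 1 female) and 12 in the female list (0 male and 6 female), and 19 H3K4me1 peaks in the male list (6 male) and 16 in the female list (2 female), by the authors' deposited table. Over both whole lists of the 4 active marks, 2.91% of peaks are called male and 1.74% female. For H3K27ac, 1.74% of the whole male list is called male and 0.861% female, and 3.02% of the whole female list is called female. For H3K4me1, 8.21% of the whole male list is called male and 3.88% of the whole female list female. Overlaps of H3K27ac and H3K4me1 peaks in the right part had opposite signs in 5 of 9 in the male list and 4 of 11 in the female list.

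In the first stretch, all 4 active marks had male calls. The H3K4me3 peak chr19:8203988-8206008 of the male list held 173 tags with no female peak over it. Its log2 ratio in the authors' deposited table was 3.75, rank 4 of 16018 peaks, and male calls make up 4.46% of that list. H3K27ac over and beside it, chr19:8202084-8206030 (400 tags) and chr19:8206363-8208544 (249 tags), had 2.75 and 2.46 in the authors' deposited table, and H3K27ac male calls make up 1.74% of the male list. H3K4me1 had 2.98 at chr19:8202157-8203817 (149 tags), 2.74 at chr19:8193494-8194342 (51 tags), 2.67 at chr19:8213365-8214402 (47 tags) and 1.87 at chr19:8194663-8195275 (28 tags) in the authors' deposited table. All of these peaks were in the male list alone.

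H3K36me3 islands of the male list lay on the lower-coordinate side of that H3K4me3 peak. They were chr19:8134400-8144199 (378 reads, log2 ratio 1.79), chr19:8145200-8153999 (310 reads, 1.41), chr19:8155200-8159799 (172 reads, 1.33) and chr19:8189000-8191999 (125 reads, 1.48), all called male in the authors' deposited table. Male calls make up 0.556% of the male H3K36me3 list, and the female list had no island in the stretch. No H3K27me3 island of either sex lay here. RefSeq places Slc22a27, Slc22a28 and Slc22a29 between the placed genes on either side, and the gene or genes under these peaks were not identified here.

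The second stretch held the only H3K27me3 islands of the right part, both in the male list, and female-called H3K27ac. The islands were chr19:8290400-8308399 (444 reads, log2 ratio 1.86) and chr19:8325600-8341199 (478 reads, 2.70) in the authors' deposited table, where the second of these ranks 10 of 20048. The male list had 1 H3K27ac peak, chr19:8325635-8327874 with 215 tags, and the female list had 6, of which chr19:8325431-8328251 had the most tags, 477. Both of those were called female at -1.62 in the authors' deposited table. The female peak overlaps only the last bases of the placed Gm41804 promoter, past the gene start. The other 5 female peaks held 76 to 138 tags, had no male peak over them and were called female at -2.97 to -1.68 in the authors' deposited table. The most female of them were chr19:8339516-8340631 (76 tags, -2.97), chr19:8337837-8339223 (79 tags, -2.30) and chr19:8302829-8304745 (133 tags, -2.29) in the authors' deposited table. H3K4me3 just downstream of the Gm41804 start was present in both sexes, with 127 tags at chr19:8326156-8327817 in males and 218 tags at chr19:8325981-8327902 in females. It was not called in either list, at -0.70 and -0.71 in the authors' deposited table. H3K4me1 of the female list was called female at chr19:8338600-8339150 (40 tags, -1.53) and chr19:8339664-8340497 (72 tags, -1.35) in the authors' deposited table. The next, chr19:8303007-8304660 (153 tags, -0.96), was not called there, and H3K36me3 had no island of either sex. Other H3K4me1 peaks had ratios above 0, uncalled. The male list had 0.83 at chr19:8326114-8327567, 0.81 at chr19:8337837-8338594 and 0.61 at chr19:8336714-8337538, and -0.35 at chr19:8292909-8293901. The female list had 0.57 at chr19:8326984-8327811 and 0.61 at chr19:8336889-8337561, both under female-called H3K27ac, and its remaining peaks were below 0.

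The third stretch carried active marks in both sexes. H3K36me3 had 7 islands over 55.6 kb with 2246 reads in males and 4 islands over 33.8 kb with 1199 reads in females, and none was called, at log2 ratios of 0.06 to 0.70 in the authors' deposited table. The fullest were chr19:8418600-8431599 in males (614 reads, 0.41) and chr19:8407200-8427599 in females (721 reads, 0.19), again from the authors' deposited table. H3K4me3 had 327 tags at chr19:8477450-8479144 in males and 120 tags at chr19:8477850-8479137 in females, called male in both lists at 1.28 and 1.29 in the authors' deposited table. Male calls make up 1.34% of the female H3K4me3 list. H3K27ac at this place, 338 tags in males and 167 in females, was not called, at 0.52 in the authors' deposited table. H3K27ac nearest the right edge lay at chr19:8504256-8507347 in males (706 tags, the most of a male peak in the right part) and chr19:8504384-8507275 in females (375 tags), again not called, at 0.38 and 0.39 in the authors' deposited table. The female H3K4me1 peak with the most tags in the right part, chr19:8504569-8507220 (286), lies there and was not called, at -0.54 in the authors' deposited table. Male calls were the H3K27ac peak chr19:8486047-8487888 (191 tags, 1.22) and the H3K4me1 peaks chr19:8466176-8467273 (62 tags, 1.24) and chr19:8471723-8472296 (33 tags, 1.72) in the authors' deposited table.

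The peaks nearest to the right edge on its outer side were present in both sexes, and male calls of H3K4me1 lay further out. H3K27ac at chr19:8521041-8524149 in males (583 tags) and chr19:8521181-8524240 in females (408 tags) had -0.01 and 0.01 in the authors' deposited table. H3K4me3 there had 55 tags in males and 35 in females and was not called, at 0.62 and 0.60 in the authors' deposited table. H3K4me1 there, 184 tags in males and 176 in females, was not called either, at 0.70 and 0.72. Further out, the male H3K4me1 peaks chr19:8528813-8529371 (30 tags, 1.90) and chr19:8548610-8551826 (279 tags, 1.18) were called male in the authors' deposited table. The first of these had no female peak over it. Male calls make up 8.21% of the male H3K4me1 list. Just inside the edge lay the H3K27ac peaks of 706 tags in males and 375 in females given above.

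H3K9me3 had 4 islands in the cluster, all between the parts. The male island chr19:8120800-8131199 held 106 reads, and the female islands chr19:8121200-8135199, chr19:8110800-8116799 and chr19:8093600-8097999 held 136, 76 and 60. None was called, at log2 ratios of -0.39 to 0.48 in the authors' deposited table, where 3.42% of the male and 2.24% of the female list are called for their own sex.

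Peaks with no partner in the other sex made up 27 of the 61 active-mark peaks of the male lists and 31 of the 69 of the female lists. Over the whole lists of these marks, the share with no partner was 8.96% to 21.2% in males and 6.99% to 28.4% in females. Among the better-scoring 50% of each list, 10 male and 10 female peaks of the cluster had no partner. The matching share over the better-scoring 50% of the whole lists is not given here, so nothing is read from these counts. Not all peaks without a partner were called: the male H3K4me1 peaks chr19:8439781-8440441 and chr19:8447724-8448558, for example, had log2 ratios of 0.35 and 0.67 in the authors' deposited table.

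The calls at the Slc22a26 promoter were of kinds seen at few placed promoters. It had a female call for H3K4me3 and for H3K27ac and a male call for H3K27me3 in the authors' deposited table. Of 11521 autosomal genes with a placed promoter, 0.269% had a female H3K4me3 call, 0.356% a female H3K27ac call and 0.13% a male H3K27me3 call in the authors' deposited table. Slc22a26 belongs to the region chosen on these ratios, so its place among them is a description.

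The rest of the Slc22a family and other liver carriers were looked up at their placed promoters. Of the 17 other Slc22a genes with a promoter sequence, 8 were placed, and 0 had a call for H3K4me3, H3K27ac, H3K27me3 or H3K4me1 in the authors' deposited table. Among them, the carnitine transporter Slc22a5 had H3K4me3 in both sexes at -0.55 (male list) and -0.56 (female list) in the authors' deposited table, and Slc22a6 (OAT1, the kidney anion uptake carrier) had H3K27ac at 0.12 and 0.14. The Slc22a6 peaks, chr19:8684584-8692419 in males and chr19:8685009-8692495 in females, lie mostly upstream of its promoter (chr19:8692237-8692536). No H3K4me3 peak overlapped that promoter. Of 17 carriers of organic anions and cations, 12 were placed. In the authors' deposited table Slco1a1, a hepatic anion uptake carrier, had a male H3K4me3 call (1.83 in the male list and 1.81 in the female list), Abcg2, an efflux pump, had a male H3K4me1 call (1.02 and 1.04 for 2 peaks of the male list) and Slco2b1 had a female H3K4me1 call (-1.13). The Slco2b1 peak reached only the upstream edge of its promoter. Each of these 3 calls was at 1 of the 12, and over all placed promoters the shares were 0.851% for a male H3K4me3 call, 0.651% for a male H3K4me1 call and 0.486% for a female H3K4me1 call in the authors' deposited table. None of the 12 had a call for H3K27ac or H3K27me3 in the authors' deposited table. Slc10a1 and Abcb11, the bile acid uptake and export carriers, had H3K27ac at 0.05 and -0.27 in the male list of the authors' deposited table.

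The tissue label was checked on promoters of marker genes. All 6 placed hepatocyte markers had H3K27ac and H3K4me3 peaks in both sexes and 0 had an H3K27me3 island, and Alb had a male H3K4me3 call in the authors' deposited table. Of the 5 placed markers of other cell types (Epcam, Stab2, Ptprc, Clec4f and Lrat), 2 had H3K27ac in each sex, Stab2 and Ptprc. H3K4me3 peaks lay at 3 of the 5 in males, Epcam, Stab2 and Lrat, and at 1 in females, Lrat. An H3K27me3 island lay at 4 of the 5 in males and 5 of the 5 in females. Over 11521 placed genes, 47.1% had an H3K27ac peak, 44.5% an H3K4me3 peak and 32.6% an H3K27me3 island in either list. The H3K27ac counts therefore do not set these 5 markers apart from placed genes as a whole. Krt19, Sox9, Pecam1, Cdh5, Cd3e, Col1a1 and Des were not placed. How far other cell types share in the peaks of the cluster was not tested.

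Control reads were thin over the whole cluster. The IgG library, from a male whose age was not taken from its label, held 11201113 reads, 4.38 per kb of autosome. The left part had 656 reads, a density 0.599 times that mean (95% exact Poisson interval 0.554 to 0.647, counting error only), and the right part had 843, at 0.520 times (0.486 to 0.557). Repeated reads at a position were counted each time. At distinct positions and strands the intervals were 0.564 to 0.683 in the left part and 0.490 to 0.581 in the right part. No IgG read fell in 34% of the 1-kb bins of the left part and 31.1% of those of the right part. Both parts lay below the autosomal mean. Its part in the peak lists was not tested.

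**Figure D5:**
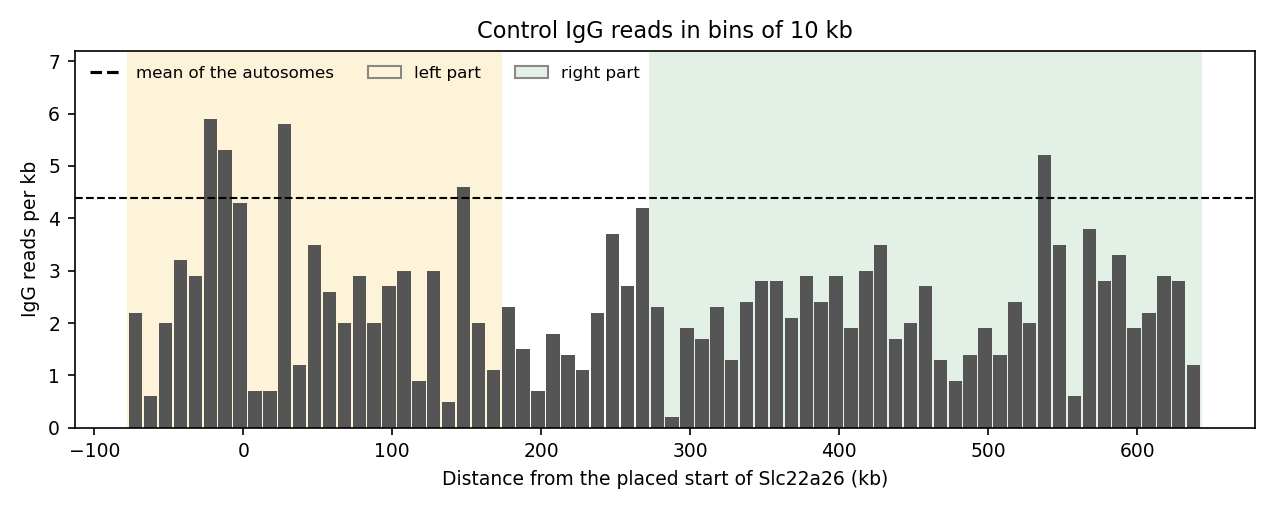
IgG reads per kb in 10-kb bins over the cluster, by distance from the start of Slc22a26 in kb, with the autosomal mean of 4.38 as a dashed line; bars are 1 library. Most bins in both parts lie below the mean.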

How the data were processed

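Per the submitters' processing notes, Bowtie, SICER 1.1 and mm9 were used, and SICER windows and gaps per the labels were 400 and 2400 bp for H3K27me3 and H3K9me3 and 200 and 800 bp for H3K36me3. The authors deposited, per the file headers, read or tag counts, a score of minus 10 log10 p, an FDR in percent and a fold over control for each peak. They also deposited, for each peak, the log2 of male over female signal with a p-value and a call. The normalisation behind it is not stated in the sources used here. The p-values compare pooled libraries, not animals. The authors' SICER fold ratios are reads over control reads, scaled by a constant for each list.

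Peaks were taken by 1 bp of overlap. Promoters, from 250 bases before to 50 after a start, were placed where a 35-base IgG read matched exactly 1 RefSeq promoter, which placed 12351 of 31396 autosomal promoters (39.3%). The 6 promoters placed in and beside the cluster all showed the same offset between builds. Motifs were counted on both strands. Python 3.11.15, NumPy 2.4.6 and SciPy 1.17.1 were used, and the overlap counts and the placement of promoters by reads were tested on simulated data. Named peaks were every called H3K4me3, H3K36me3, H3K27me3 and H3K9me3 peak, per mark, list and part the 3 H3K4me1 and 3 H3K27ac peaks with the largest absolute log2 and the peak with the most reads, and the peaks nearest the edges; others named were chosen after their values were seen. The members and gene lists were chosen with earlier results of these data known. Sex chromosomes were left out of promoter placement and of the IgG mean, and shares over whole lists were taken with no filter by chromosome. The other IgG libraries were not used here. Alternatives varied the call rule, the centring of ratios, membership, merging, peak score, part edges and the overlap that counts as shared.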

Additional observations from a re-analysis of the deposited data

How the results depend on the processing

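Of 41 alternatives computed, 31 left a count within 1.5 times its main value or a density within its interval, and 10 did not. The left part had 3 male and 28 female active-mark calls in the authors' deposited table. With an absolute log2 ratio of at least 1.5 and p below 1e-05 these became 1 and 16, and the right part's 15 male calls became 7. With ratios centred on the peaks shared by both lists, the left male calls became 1, the H3K4me1 peaks chr19:7849165-7850496 and chr19:8040194-8041186 falling below the limit. With the better-scoring 50% of each list, the left part had 1 male and 15 female calls, and the right part had 7 male and 3 female calls in place of 15 and 9. The same restriction gave 10 male-only and 10 female-only active-mark peaks, in place of 27 and 31. These stricter settings keep fewer peaks by construction. The H3K27me3 calls of the left part stayed between 5 and 7 of the 7, and IgG density at distinct positions was 0.621 in the left and 0.534 in the right part.

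Leaving out a replicate was not run, since the lists of a mark and sex are identical between its libraries. No paired analysis was possible because the deposited lists are pooled over the libraries of a mark and sex. Depth limits the smallest peaks, several of which hold under 50 tags, and reads of 35 bases have no unique place in the stretches that the Slc22a28 and Slc22a30 promoters share. The placement of genes covered 1 of the 5 members.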
